A study of Mus musculus with 6 samples.

Results

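The Id genes, Id1, Id2, Id3 and Id4, encode the inhibitors of differentiation, and their mRNA levels were followed in a mouse tumour line given PTC-209. All 4 genes of the family were taken by name, and each had 1 probe set annotated with that gene alone, so 4 of the 28192 probe sets tested and 4 of the 19937 named genes are described. Where a gene had several such probe sets, the one with the highest mean over the 6 arrays stood for it, which left no choice to make for the Id genes. The cells are A316, labelled as a primary adenocarcinoma line with a knockout of cebp alpha, and every array comes from this line and genotype. The treated group is 3 arrays of cells that received PTC-209, by the labels a means of Bmi inhibition, dissolved in 0.5% DMSO, and the control group is 3 arrays of cells that received that vehicle alone. The sources used here give neither dose nor exposure time, and nothing in the labels tells whether replicates were separate cultures. The p-values therefore cover the spread among these arrays, which may be technical.

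An Id protein has the helix-loop-helix by which such factors pair, but lacks the basic stretch that touches DNA. It binds the E proteins, the common partners of tissue-restricted basic helix-loop-helix (bHLH) factors, and the pair it forms cannot bind an E-box. Id genes are high in many dividing and undifferentiated cells, and Id1, Id2 and Id3 are classical early targets of bone morphogenetic protein (BMP) signalling through SMAD1, SMAD5 and SMAD4.

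Levels below are the authors' log2 values, on which a step of 1 is a doubling. Levels of different genes are not compared, because probe sets differ in their response. The median level of a tested probe set, averaged over the 6 arrays, was 4.33, and a gene below it in both groups is called dim. Arrays of 1 group correlated at 0.992 to 0.996 over probe sets and arrays of different groups at 0.970 to 0.974 (a description, since probe sets are no replicates). Bmi1, whose product PTC-209 is said to target, fell 1.45-fold (adjusted p = 0.00424), and the call ended when a fold above 1.2 was required (adjusted p = 0.0942). Cebpa was dim in both groups, at 3.65 ± 0.16 (SD, n = 3) in DMSO and 3.79 ± 0.12 with PTC-209. The sources used here do not tell whether its probes lie within the deletion, so this level is no check of the knockout. Of the epithelial markers Epcam, Cdh1, Krt7, Krt8, Krt18, Krt19, Cldn4 and Cldn7, all 8 were above the median level. The 4 keratin genes fell, and 2 genes, Cdh1 and Cldn4, rose. Of all named genes that reached the median level 23.5% fell and 21.9% rose. The summed linear level of the 8 markers was 9004 to 10052 in DMSO and 5147 to 5858 with PTC-209, most of it from the keratins. Of 9 markers of lung epithelium 7 were dim, Nkx2-1 among them, and 0 of 9 passed the test (0 at an unadjusted limma p under 0.05).

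The promoters of Id2 and Id3, which both fell, and of Id4, which did not pass the test, are shown so that the windows can be read side by side. Each is the 250 bases before the start site, 5′ to 3′ on the gene's strand, from RefSeq on GRCm38.p6. Capitals mark GGCGCC, a motif described for BMP-activated SMADs, CAGAC, which holds the general SMAD box, and CCAAT, the box bound by NF-Y, on either strand.
Id2 (chr12:25096093-25096342, minus strand): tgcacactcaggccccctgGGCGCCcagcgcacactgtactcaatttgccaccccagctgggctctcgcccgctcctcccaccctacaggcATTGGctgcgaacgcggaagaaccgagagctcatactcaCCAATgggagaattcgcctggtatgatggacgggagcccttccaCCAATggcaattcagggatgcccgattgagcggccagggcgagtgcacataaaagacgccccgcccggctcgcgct
Id3 (chr4:136143572-136143821, plus strand): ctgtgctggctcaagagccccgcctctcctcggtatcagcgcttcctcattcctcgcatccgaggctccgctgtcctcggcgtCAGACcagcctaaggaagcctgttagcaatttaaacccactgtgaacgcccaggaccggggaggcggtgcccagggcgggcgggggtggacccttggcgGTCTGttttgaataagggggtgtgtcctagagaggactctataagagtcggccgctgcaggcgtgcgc
Id4 (chr13:48260866-48261115, plus strand): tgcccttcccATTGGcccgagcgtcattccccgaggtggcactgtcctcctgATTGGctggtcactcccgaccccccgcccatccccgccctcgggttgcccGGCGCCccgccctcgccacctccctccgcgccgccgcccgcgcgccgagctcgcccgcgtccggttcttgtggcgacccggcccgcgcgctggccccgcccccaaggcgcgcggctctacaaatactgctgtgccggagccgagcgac

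Id2 and Id4 both held GGCGCC and CCAAT, and Id3 held neither. GGCGCC stood once in Id2, beginning 231 bases before the start site, and once in Id4, beginning 148 bases before it. Of all 32851 windows of that length, 9.59% held it. CCAAT occurred 3 times in Id2 and 2 times in Id4, against 33.8% of all windows with at least 1 match. CAGAC was found at 2 places in Id3, beginning 167 and 68 bases before the start, and in neither of the others, where 42.2% of all windows held it. The GC box GGGCGG matched once in Id2, 2 times in Id3 and 5 times in Id4 (32.7% of all windows). A TATAA stretch lay 29 bases before the start of Id3 alone among these windows (22.8% of all). CANNTG, the E-box to which E proteins bind, occurred once, as CAGCTG in Id2, against 66.2% of all windows. Both strands were searched for each motif and no matches of different motifs overlapped. The G and C share was 62.8% in Id2 and in Id3 and 75.6% in Id4. None of these 6 motifs occurred in both the Id2 and the Id3 window and was missing from Id4. Id1, which also fell, had no window here, and bases further upstream than 250 were not searched for any gene. A match is a description of letters, not of a bound site, and a missing match covers these windows alone.

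Id1, Id2 and Id3 fell with PTC-209, by 4.08-fold, 6.53-fold and 7.51-fold, and Id4 was dim in both groups and did not pass the test. In the fit over all probe sets 3 of the 4 Id genes thus fell, where 13.7% of all named genes did, and all 3 fell at least 4-fold, as did 1.02% of named genes. The median log2 difference of the 4 Id genes was -2.37, beside 0.03 over all named genes. The family was chosen with results of this comparison known, so these counts describe it and test nothing about families. Whether a lower value means less RNA in each cell or fewer cells that hold it cannot be told apart on arrays of bulk RNA.

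Id1, a member widely studied in epithelial tumours, read 9.10, 8.80 and 8.69 on DMSO replicates 1 to 3 and 6.87, 6.87 and 6.77 on the PTC-209 replicates. Every treated array lay below every control array, with the lowest DMSO value well above the highest PTC-209 value. The group levels were 8.86 ± 0.21 (SD, n = 3) and 6.83 ± 0.058, a log2 difference of -2.03 (SE 0.119, adjusted p = 2.66e-06). The level was 4.08-fold lower, with a 95% confidence interval of 3.38 to 4.91.

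Id2, which besides E proteins also binds the retinoblastoma protein, read 9.33, 9.75 and 9.63 in DMSO and 6.76, 6.80 and 7.02 with PTC-209. The groups were again far apart, and DMSO replicate 1 was the lowest control array. The means were 9.57 ± 0.21 and 6.86 ± 0.14, and the log2 difference was -2.71 (SE 0.129, adjusted p = 8.44e-07). This is a level 6.53-fold lower, with an interval of 5.34 to 7.98.

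Id3, a member often switched on together with Id1, read 7.76, 7.33 and 7.32 in DMSO and 4.31, 4.62 and 4.76 with PTC-209. The treated arrays came down to the middle of all probe sets, and replicate 1 of them lay just under the median level of 4.33. From 7.47 ± 0.25 to 4.56 ± 0.23, the log2 difference was -2.91 (SE 0.155, adjusted p = 1.49e-06). The level was 7.51-fold lower, with an interval of 5.90 to 9.56, and a treated level so near the middle of all probe sets leaves the fold less certain than its interval.

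Id4, the member best known from the nervous system and the germ line, read 4.14, 3.65 and 3.90 in DMSO and 4.10, 4.0 and 4.24 with PTC-209. The arrays of the groups overlapped, and all 6 were under the median level. The difference of 0.22 (SE 0.135, 95% confidence interval -0.09 to 0.52) did not pass the test (adjusted p = 0.324). At such a level the array cannot show whether Id4 was expressed at all.

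**Figure D1:**
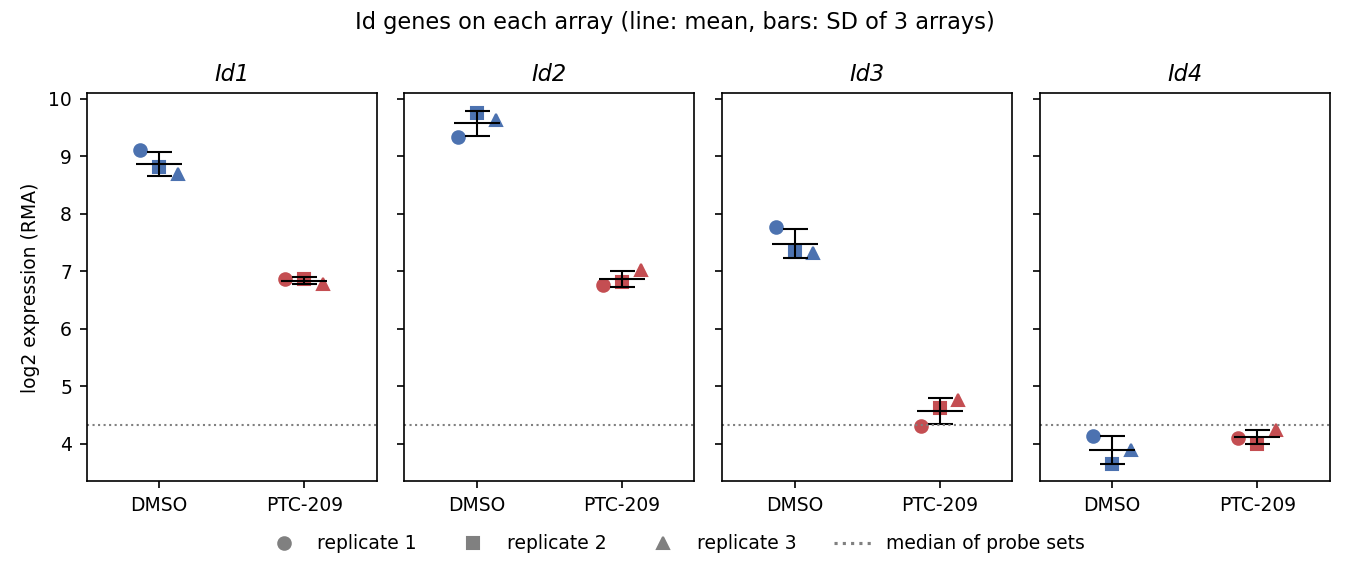
Log2 expression of Id1, Id2, Id3 and Id4 on each of the 6 arrays, 3 with DMSO and 3 with PTC-209; symbols mark the replicate number, horizontal lines the group mean and bars the SD, and the dotted line the median probe set at 4.33. Id1, Id2 and Id3 separate the groups without overlap, while Id4 lies under the dotted line on all arrays; heights are to be read within a panel and not between genes.

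The spread within a group did not follow 1 array for all members. DMSO replicate 1 was the highest control array for Id1, Id3 and Id4 and the lowest for Id2. Among treated arrays, PTC-209 replicate 3 was the highest for Id2, Id3 and Id4 and the lowest for Id1. The change of Id1 was smaller than that of Id3 by 0.88 on the log2 scale and smaller than that of Id2 by 0.68. Id2 and Id3 differed in their change by 0.20. Over 6 pairs of Id genes, the exact two-sided permutation test of the arrays gave p = 0.1 for Id1 against Id3 and for each of Id1, Id2 and Id3 against Id4, which is the smallest p that 3 against 3 arrays allow. It gave 0.2 for Id1 against Id2 and 0.8 for Id2 against Id3. Adjusted over the 6 pairs these became 0.15, 0.24 and 0.80, and this permutation test cannot reach 0.05 with 3 against 3 arrays, whatever the size of a difference. In the limma fit the 95% interval of the log2 difference was -2.30 to -1.76 for Id1 and -0.09 to 0.52 for Id4, and these do not overlap. Id4 was under the median level on every array, where the array cannot show whether it was expressed. The family was also chosen with results of this comparison known, so this gap is a description and no test.

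Ordered by the size of their fall among all 19937 named genes, Id3 stood at place 36, Id2 at place 51 and Id1 at place 193. All 3 PTC-209 arrays lay below all 3 DMSO arrays for each of them, which held for 19.4% of named genes. The plot of all named genes shows the 3 lines in the thin left tail and Id4 in the central mass.

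**Figure D2:**
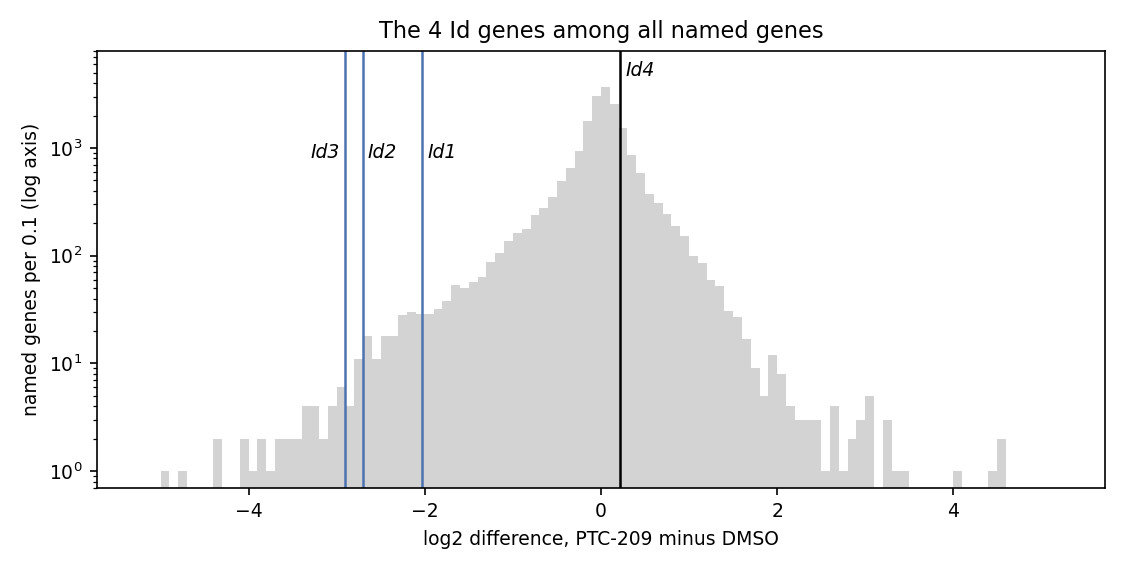
Number of named genes per 0.1 of log2 difference (PTC-209 minus DMSO), on a logarithmic vertical axis, over all 19937 named genes. Vertical lines mark Id3 at -2.91, Id2 at -2.71 and Id1 at -2.03 in the left tail and Id4 at 0.22 near the centre.

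E proteins are what Id proteins capture, and 2 of the 3 rose, where 12.9% of named genes did. All 3 reached the median level, and 21.9% of named genes at such levels rose. Tcf4, the E protein E2-2, read 6.65, 6.25 and 6.35 in DMSO and 7.34, 7.03 and 6.99 with PTC-209. It was 1.63-fold higher (log2 difference 0.71, SE 0.137, adjusted p = 0.0042). Tcf12, known as HEB, went from 8.10, 8.29 and 8.26 to 8.79, 8.88 and 8.63, a level 1.47-fold higher (log2 difference 0.55, adjusted p = 0.00386). For both genes every treated array lay above every control array, as for 21.1% of named genes. Tcf3, whose products E12 and E47 are the best studied E proteins, did not pass the test, at 6.75 ± 0.35 and 6.59 ± 0.14 (log2 difference -0.16, adjusted p = 0.58). Its DMSO replicate 1, at 7.15, stood above the other control arrays at 6.59 and 6.51, and without that array the difference was 0.04. The call of Tcf12 ended when a fold above 1.2 was required (adjusted p = 0.0822). The median log2 difference of the 3 E proteins was 0.55.

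Of the tissue-restricted bHLH factors, with which E proteins pair, 40 of 42 listed had a value, and 27 of them were dim in both groups. Of the 40, 1 rose and 1 fell, where 12.9% and 13.7% of all named genes did. The muscle factors Myod1 and Myf5 and the neural factors Neurog1 and Neurod1 did not pass the test. Myf5, Neurog1 and Neurod1 were dim, and Myod1 was near the median level, at 4.50 in both groups. Scx, scleraxis, a bHLH factor of tendon and connective tissue, fell, from 7.32, 7.31 and 6.99 to 6.04, 5.78 and 5.58. The level was 2.65-fold lower (log2 difference -1.41, SE 0.141, adjusted p = 7.35e-05), with every treated array below every control array, as for 19.4% of named genes. Atoh7, a factor of retinal neurons, was 1.28-fold higher (log2 difference 0.36, adjusted p = 0.018). That call ended when DMSO replicate 2 was left out (adjusted p = 0.0674), and likewise for PTC-209 replicate 2 (0.0732) and replicate 3 (0.0546), which leaves 0 rises in the list, and with a minimum fold of 1.2. The list had 2 falls without DMSO replicate 2 or PTC-209 replicate 3. Its median was 0.06, near that of all named genes.

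Upstream of the Id genes, 2 of 13 BMP ligand genes fell and 7 were dim, a share near the 13.7% of named genes that fell. Bmp4 read 7.12, 6.93 and 6.88 in DMSO and 5.34, 5.76 and 5.54 with PTC-209, a level 2.69-fold lower (log2 difference -1.43, SE 0.127, adjusted p = 3.45e-05). Bmp7 went from 9.26, 9.23 and 9.24 to 8.22, 8.17 and 7.96, 2.18-fold lower (log2 difference -1.12, adjusted p = 3.6e-05). Both ligands act through the receptors that lead to the BMP SMADs. For both, every treated array lay below every control array, as for 19.4% of named genes. Bmp2 was close to the median level, at 4.38 ± 0.20 and 4.06 ± 0.065, and its adjusted p was 0.0843. Without 1 array or another the count of falls was 2 to 3.

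Of 11 BMP receptor and co-receptor genes 2 rose and 0 fell, and 3 were dim. That is near the 12.9% of named genes that rose, so the count shows nothing about the receptors as a group. Acvr1, the type I receptor ALK2, read 6.71, 6.43 and 6.43 in DMSO and 7.31, 7.27 and 7.13 with PTC-209, 1.64-fold higher (log2 difference 0.71, adjusted p = 0.0012). Bmpr2, the type II receptor, was 1.33-fold higher, at 8.54 ± 0.074 and 8.95 ± 0.22 (adjusted p = 0.0367). Its call was lost without any 1 array other than PTC-209 replicate 3 (adjusted p 0.0634 to 0.124), which leaves 1 rise in the list, and after cyclic loess (0.0746) or a second quantile normalization (0.0538). Bmpr1a, a type I receptor well above the median level, did not pass the test (log2 difference 0.16).

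The SMADs that carry the BMP signal to the nucleus did not pass the test in either direction. By limma 0 of 4 passed, and 0 of 4 at an unadjusted limma p under 0.05. All 4 reached the median level, where 23.5% of named genes fell and 21.9% rose. Most genes at such levels thus did not pass, and the count shows nothing about the SMADs as a group. Smad1 was at 6.56 ± 0.091 in DMSO and 6.52 ± 0.16 with PTC-209, and the 95% interval of the log2 difference ran from -0.30 to 0.20. For Smad5 the levels were 7.59 ± 0.16 and 7.65 ± 0.11 (interval -0.20 to 0.31). Smad9, which encodes SMAD8, was near the median level at 4.52 ± 0.16 and 4.53 ± 0.052 (interval -0.23 to 0.25). Smad4, the common partner, read 8.51 ± 0.17 and 8.61 ± 0.11 (interval -0.16 to 0.36). Activity of these proteins depends on phosphorylation, which an array does not read. The signs of Smad1, Smad5 and Smad9 turned under another normalization, Smad1 after a second quantile normalization and the others after cyclic loess.

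Of 15 measured antagonists and inhibitors of the BMP pathway 2 fell and 2 rose, near the 13.7% and 12.9% of all named genes. Fst, follistatin, which binds activin and some BMPs outside the cell, read 9.34, 9.46 and 9.32 in DMSO and 6.71, 6.77 and 6.63 with PTC-209. It was 6.37-fold lower (log2 difference -2.67, SE 0.0941, adjusted p = 2.61e-07), beside a difference of -2.71 for Id2. Twsg1, an extracellular modulator of BMP binding, was 1.52-fold lower (adjusted p = 0.00164). Smurf1, a ubiquitin ligase that marks SMAD1 and SMAD5 for degradation, rose from 7.64, 7.48 and 7.52 to 9.03, 9.06 and 8.82, a level 2.69-fold higher (log2 difference 1.43, SE 0.104, adjusted p = 9.77e-06). Ski, a co-repressor that binds SMADs, was 1.43-fold higher (adjusted p = 0.00213), and its call ended when a fold above 1.2 was required (adjusted p = 0.0734). In this list Fst and Smurf1 moved by more than 2-fold in opposite directions, and the list median was 0.00.

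Of other genes known to answer BMP and SMADs 0 of 15 measured passed the test by limma. At an unadjusted limma p under 0.05, 1 was lower and 1 higher. Over all named genes 26.6% passed the test, with 13.7% lower and 12.9% higher. Of the 15, 8 were dim in both groups. Most of the others were near the median level, and no group level in the list was above 5.49. Of named genes that reached the median level 23.5% fell and 21.9% rose. Smad7, the inhibitory SMAD, was at 5.49 ± 0.11 and 5.39 ± 0.093 (log2 difference -0.10, 95% interval -0.33 to 0.13). Smad6 stood close to the median level, at 4.37 ± 0.063 and 4.36 ± 0.053 (interval -0.21 to 0.20). Msx1, a homeobox gene, was at 4.90 ± 0.10 and 4.97 ± 0.066. Atoh8 was lower on all treated arrays, 4.31, 4.30 and 4.58 against 4.69, 4.63 and 4.71, as were 19.4% of named genes. Its adjusted p was 0.0883. Atoh8, Smad7, Smad6 and Msx1 are among the 7 that reached the median level in at least 1 group, and they were chosen after their values were seen. Without PTC-209 replicate 3 the list had 1 fall. That the Id genes differ from this list was not tested.

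Among 12 transcription factors reported to act on Id genes 5 rose and 3 fell. All 12 reached the median level, as did 11046 named genes, of which 21.9% rose and 23.5% fell. The share of falls is thus near that of the background, and the share of rises is above it. The list was written with earlier results known, so these shares are a description and no test. Hes1, a bHLH repressor downstream of Notch, read 5.94, 6.33 and 6.39 in DMSO and 5.05, 4.90 and 5.31 with PTC-209, 2.19-fold lower (log2 difference -1.13, adjusted p = 0.000392). Atf3, a stress-induced factor described as a repressor of Id1, rose from 7.16, 6.93 and 7.08 to 8.25, 8.06 and 7.92, 2.02-fold higher (log2 difference 1.02, adjusted p = 0.000158). Myc, which has been described to activate Id2, was 1.62-fold higher, at 10.37 ± 0.059 and 11.07 ± 0.084 (adjusted p = 0.000489). The treated arrays of Myc lay above their controls and those of Id2 below, and an action of Myc on Id2 was not tested. Cebpb was 1.59-fold higher and Klf4 1.37-fold higher, and both calls ended when a fold above 1.2 was required (adjusted p = 0.0598 and 0.198). The remaining calls of this list were named after their values were seen. Srf was higher by 0.45, Creb1 lower with a log2 difference of -0.44, and Egr1, an activator of Id1, lower with -0.41 (adjusted p = 0.049). The call of Egr1 ended on leaving out any array other than PTC-209 replicate 2 (adjusted p 0.0531 to 0.164), after median centring (0.0611) and with array weights (0.0818). The call of Srf ended on leaving out replicate 2 or 3 of DMSO, or replicate 1 or 2 of PTC-209 (0.0568 to 0.0994), and Creb1 without PTC-209 replicate 2 (0.0727).

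Id proteins are short-lived, and 2 of the 7 genes listed for their turnover fell. All 7 reached the median level, and 23.5% of named genes at such levels fell, a share near that of the list. Usp1, a deubiquitinase described to protect Id1, Id2 and Id3 from degradation, read 7.05, 7.18 and 7.06 in DMSO and 5.79, 5.79 and 5.89 with PTC-209. It was 2.42-fold lower (log2 difference -1.27, SE 0.0929, adjusted p = 9.72e-06). Cdc20, which directs the anaphase-promoting complex in mitosis, was 3.20-fold lower, from 8.02 ± 0.044 to 6.34 ± 0.18 (adjusted p = 5.14e-06). Wdr48, the partner of Usp1, had a difference of 0.26 and Fzr1, which encodes the APC activator CDH1, one of 0.28, and neither passed (adjusted p = 0.0726 and 0.0529). Without DMSO replicate 1 the list had 1 rise. Levels of the Id proteins themselves were not measured.

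**Figure D3:**
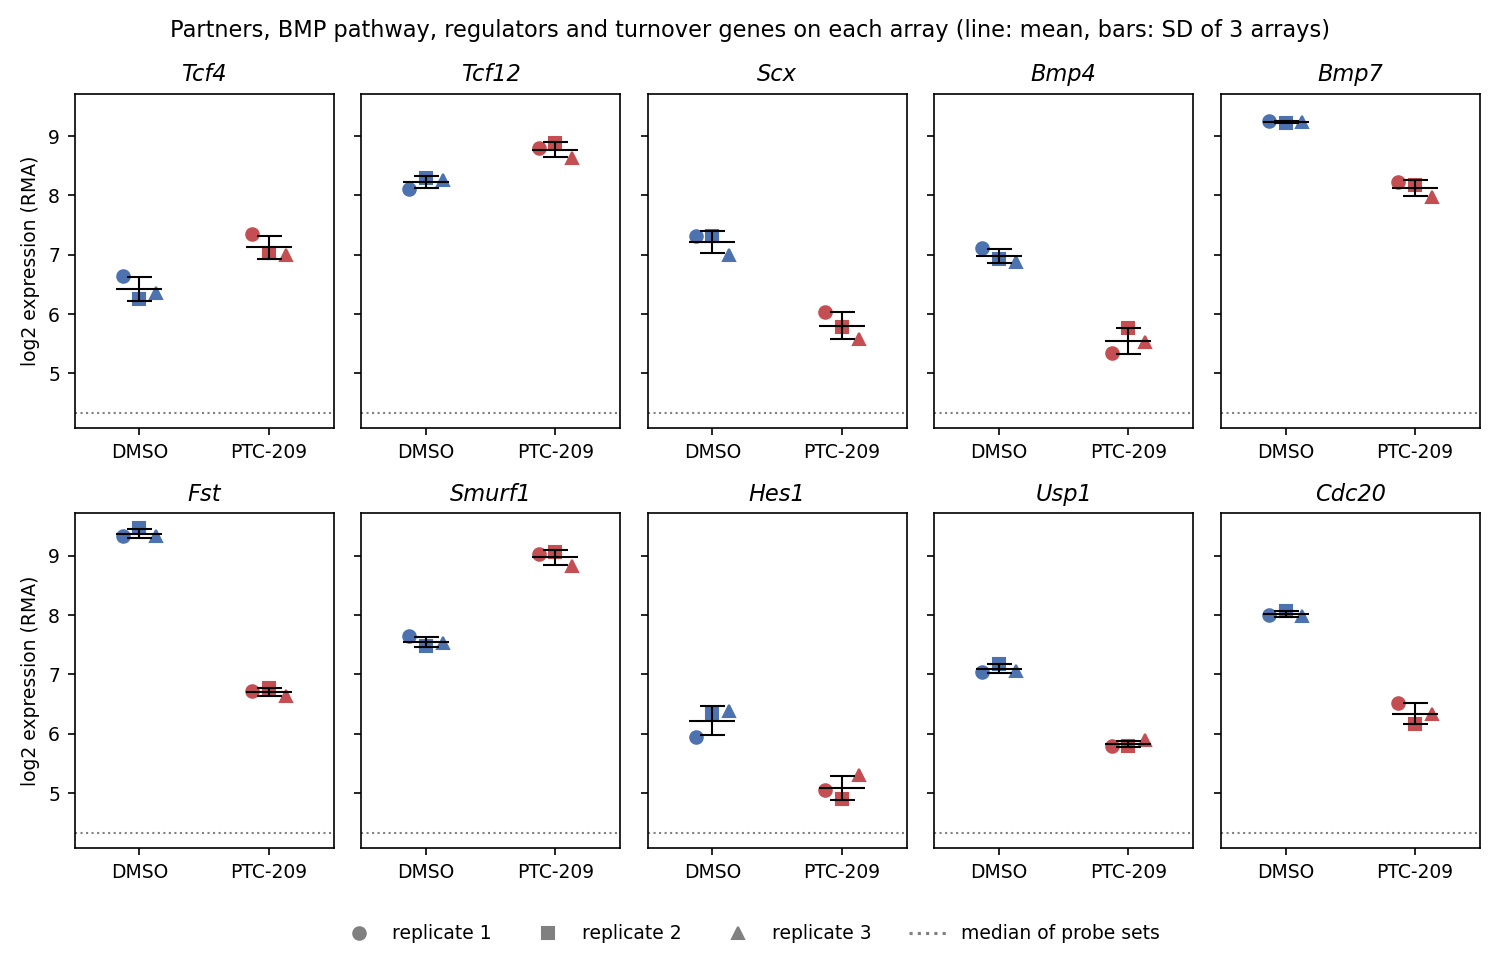
Log2 expression on each of the 6 arrays of the E proteins Tcf4 and Tcf12, the bHLH factor Scx, the ligands Bmp4 and Bmp7, the inhibitors Fst and Smurf1, the regulator Hes1 and the turnover genes Usp1 and Cdc20; symbols mark the replicate number, lines the mean and bars the SD of 3 arrays, and the dotted line the median probe set. Tcf4, Tcf12 and Smurf1 are higher with PTC-209 and the other 7 lower, with no overlap between groups in any panel. All genes shown had passed the test. Over all named genes, 19.4% had every treated array below every control array and 21.1% had every treated array above.

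Of the other partners and reported targets of Id proteins 7 of 15 fell and 5 rose. All 15 reached the median level, where 23.5% of named genes fell and 21.9% rose. The pocket proteins, which Id2 binds in their active form, were lower: Rbl1, p107, fell from 7.52, 7.34 and 7.41 to 5.92, 5.77 and 6.05, 2.85-fold lower (log2 difference -1.51, adjusted p = 7.9e-06). Rbl2, p130, was 1.98-fold lower (adjusted p = 0.000231), and Rb1, named after its value was seen, was 1.57-fold lower (adjusted p = 0.00568). ETS factors, whose DNA binding Id proteins can block, were higher where they passed. Ets2 rose from 6.92, 6.64 and 6.79 to 8.19, 8.15 and 8.0, 2.51-fold higher (adjusted p = 1.94e-05). Ets1 and Elk1, also named after their values were seen, had differences of 0.42 and 0.65. Ccnd1, cyclin D1, was 2.02-fold lower, from 11.01 ± 0.12 to 9.99 ± 0.10 (adjusted p = 8.27e-05), and Cav1, caveolin, 2.04-fold lower (adjusted p = 3.62e-05).

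Cdkn2a is reported to be held down by Id1, and Thbs1, thrombospondin, likewise. In these data Cdkn2a was lower, at 5.32 ± 0.074 and 4.94 ± 0.16 (log2 difference -0.39, adjusted p = 0.0278), as was Thbs1, at 7.75 ± 0.21 and 7.29 ± 0.20 (log2 difference -0.46, adjusted p = 0.0394). Whether Id1 acts on either gene in these cells was not tested, and neither call was firm. That of Cdkn2a ended on leaving out replicate 1 or 3 of DMSO, or replicate 1 or 2 of PTC-209 (adjusted p 0.053 to 0.102). That of Thbs1 ended on leaving out replicate 1 or 3 of DMSO, or replicate 2 or 3 of PTC-209 (0.0892 to 0.135), and after median centring (0.0507). Cdkn2b, the neighbouring p15 gene, rose by 0.52, and Gata4, a transcription factor, by 0.82. Cdkn2a, Thbs1, Cdkn2b and Gata4 were named after their values were seen. A required fold above 1.2 ended the calls of Rb1, Ets1, Elk1, Cdkn2a, Cdkn2b, Thbs1, Srf, Creb1, Egr1 and Bmpr2 (adjusted p 0.0665 to 0.664).

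**Figure D4:**
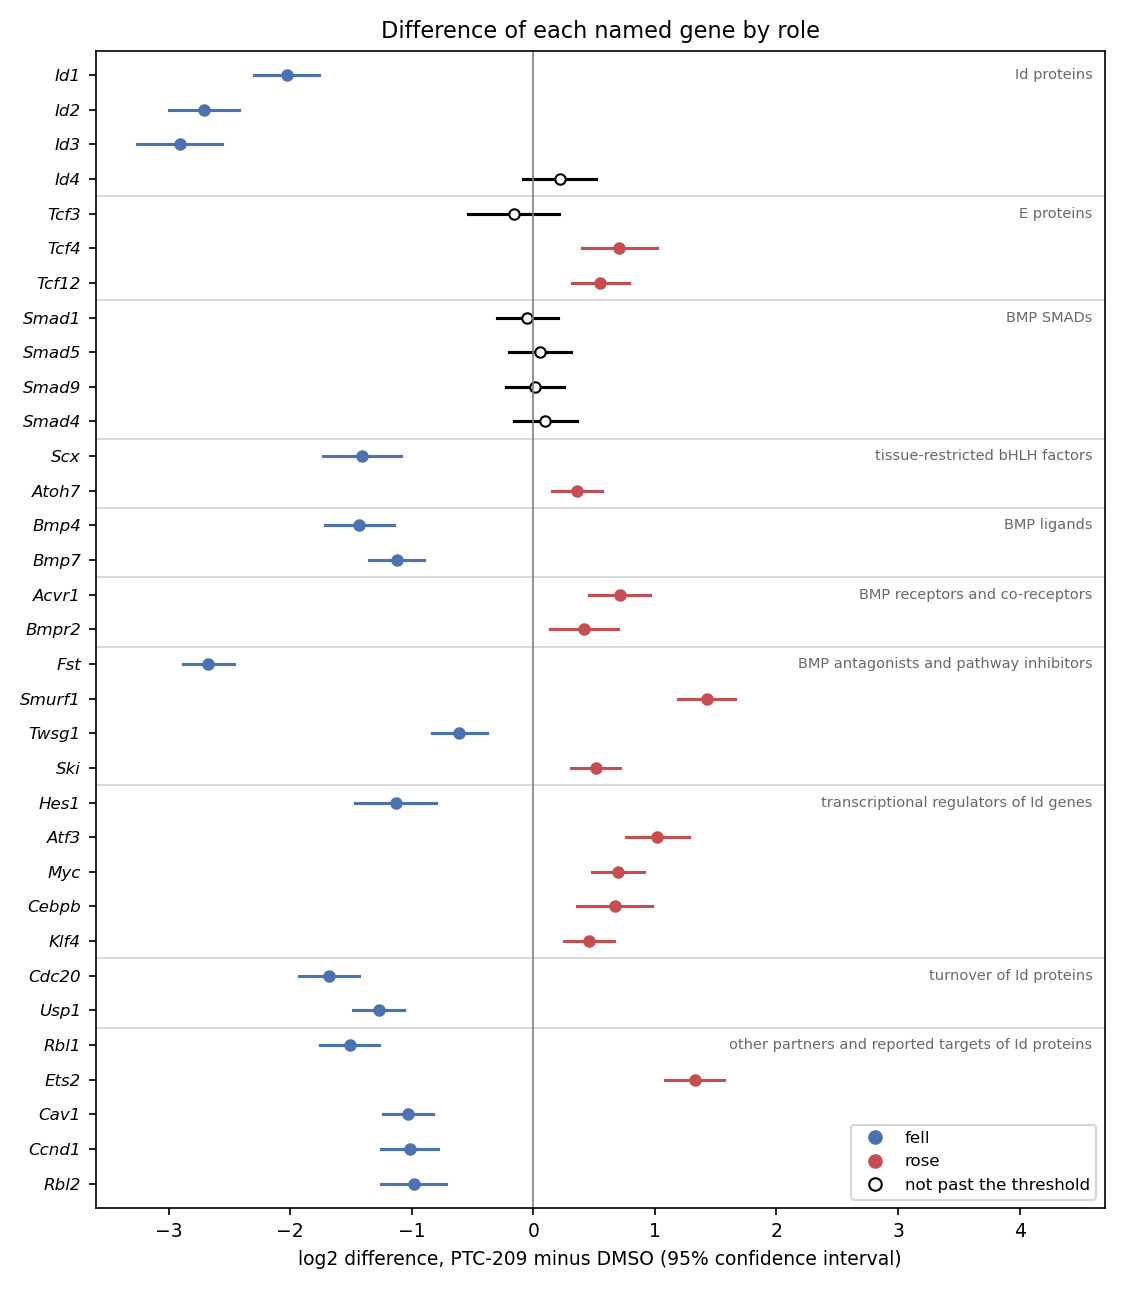
Log2 difference (PTC-209 minus DMSO) of each gene that the naming rule took, with its 95% confidence interval from the limma fit, grouped by role. The genes nearest to each Id gene in profile are not drawn. Blue marks genes that fell, red genes that rose and open symbols genes not past the threshold. Id1, Id2, Id3 and Fst lie below -2, while Id4, the 4 BMP SMADs and Tcf3 have intervals that include 0.

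The genes whose array-by-array profile, centred on its own mean, lay nearest to each Id gene were found among all named genes that are not predicted genes. For Id1 they were Aurkb, a mitotic kinase (root mean square distance 0.035 on the log2 scale, Pearson r 0.999), Brca2, of DNA repair (0.051), and Ikbke, a kinase of immune signalling (0.063). Aurkb went from 9.21 to 7.16. For Id2 they were Cenph, a kinetochore gene (0.084), Rgs2, a regulator of G protein signalling (0.11), and Tyms, thymidylate synthase (0.13). Id3 lay nearest to Cdkn3, a phosphatase of cyclin-dependent kinases (0.17), Exo1, an exonuclease (0.18), and the cytokine gene Il33 (0.20). For Id4 the nearest were Mob3a (0.038), Ifi214 (0.041) and Peg3 (0.042), of which Ifi214 and Peg3 were dim too. These likenesses rest on the same 6 arrays, which fall into 2 groups, so a correlation mostly restates the difference between the groups.

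Markers of other cell types were read beside these values, since Id genes are also high in endothelium and connective tissue. Of 6 endothelial markers 5 were dim, Pecam1 and Kdr among them, and Cdh5 fell, with a log2 difference of -1.33. The summed linear level of that list was 737 to 783 in DMSO and 292 to 374 with PTC-209, most of it from Cdh5. Among 7 leukocyte markers 4 were dim, Ptprc among them at 3.17 and 3.06. Cd68 rose by 2.61 and Cd14 fell with a difference of -0.88. The sum was 323 to 351 in DMSO and 1128 to 1189 with PTC-209, most of the treated sum from Cd68. Of 8 fibroblast markers 0 passed the test (1 higher at an unadjusted limma p under 0.05). Their sum was 3001 to 3227 in DMSO and 2737 to 2787 with PTC-209, most of it from Vim. The summed epithelial markers, given above and mostly from keratins, were also lower on all treated arrays, while Cdh1 and Cldn4 rose. The part of these markers in the fall of the Id genes was not tested.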

How the data were processed

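Values were used as deposited by the authors, on a log2 scale after RMA per the submitters' processing notes, which give no version. Because RMA makes the arrays' distributions alike, a change common to most genes would go unseen. Of 34760 probe sets, 6568 with consecutive identifiers and no listed gene were left out as the control block. Of the 28192 tested, 21640 had 1 gene symbol in GEO's platform annotation, 1321 several and 5231 none listed. Differences were tested in R 4.3.3 by limma 3.58.1 (lmFit and eBayes, no term besides treatment), with Benjamini-Hochberg adjustment over all 28192. "Rose" and "fell" stand for an adjusted p under 0.05. The fit was tested on simulated data. The number of arrays, 3 per group, limits the precision. Of 176 listed genes 170 were measured.

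The Id genes and the lists were chosen with earlier results of these data known, and the lists were written from general knowledge. Named were all Id genes, E proteins and BMP SMADs, up to 5 genes past the threshold with the largest difference from each other list, and the 3 genes nearest to each Id gene in profile. Genes outside this rule are said to be so, or illustrate a list. Some genes stand in 2 lists. The median level was at first taken over brighter-group means and was set to the mean over the 6 arrays after first results were seen, which changed counts of dim genes and no Id result. Promoter windows and their motifs came from a RefSeq table, which held Id2, Id3 and Id4. The motifs were chosen after these windows had been read. Figures were drawn with matplotlib 3.10.9. As alternatives, each array was left out in turn, arrays were weighted, the replicate number was added as a block, a minimum fold of 1.2 was required, and the prior was made trended and robust. Arrays were also centred on their medians, or normalized again by cyclic loess or by quantiles, dim probe sets were dropped, the control block was kept, and all probe sets of a gene were averaged. The labels' free-text description names embryo stages, which does not match the titles, and was not used.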

Additional observations from a re-analysis of the deposited data

How the results depend on the processing

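Id1, Id2 and Id3 kept their direction and their call under all 16 alternatives, and Id4 stayed short of the threshold under the 15 that gave it a value, since leaving out dim probe sets removed it. The log2 difference ranged from -2.12 to -1.91 for Id1, from -2.83 to -2.62 for Id2, from -3.01 to -2.76 for Id3 and from 0.09 to 0.34 for Id4, extremes that all came from leaving out 1 array. The largest adjusted p was 9.14e-05 for Id1, 5.02e-05 for Id2 and 7.5e-05 for Id3. The replicate numbers do not pair the arrays by the labels, and deviations of same-numbered arrays correlated at 0.231, 0.0703 and 0.0733, with 3 of 6 arrays closest to their own number. With the replicate number as a block 2844 named genes fell and 2689 rose, against 2741 and 2565 without it, and the adjusted p was 8.62e-06 for Id1, 4.08e-06 for Id2, 1.32e-05 for Id3 and 0.227 for Id4. Signs turned for genes that did not pass the test: with 1 array left out, Tcf3 ranged from -0.28 to 0.040, Smad1 from -0.12 to 0.039 and Smad9 from -0.045 to 0.10, and Smad1 was 0.011 after quantile normalization again, Smad5 -0.0024 and Smad9 -0.016 after cyclic loess. Requiring a fold above 1.2 left 1610 falls and 1270 rises. Cyclic loess gave 3125 falls and 2352 rises, and array weights 2884 and 2967. Keeping the control block ended the calls of Bmpr2, Srf, Egr1, Cdkn2a and Thbs1. Of 830 other values for single genes 770 kept direction and call, 52 lost the call and 8 turned, and of 320 list counts 33 moved by over 1.5 times. The cause of these changes was not tested.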
